A study of Mus musculus with 6 samples.

Results

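The mitochondrial ribosomal protein genes, the nuclear genes named Mrpl or Mrps with a number, were examined in mouse fibroblasts treated with extracellular vesicles (EVs), small membrane particles shed by cells. A rule on the gene symbol alone picked 76 of the 20475 genes in the deposited expression table. The rule reads no measured value, but it and the gene lists used below were chosen with earlier results of these data known. The cells were NIH3T3, an immortalised mouse embryonic fibroblast line, and RNA was taken 48 h after treatment at passage 5. The groups were cells given PBS, the buffer of the vesicles (2 libraries), cells given EVs of MCF10A, a human breast epithelial line that does not form tumours (2 libraries), and cells given EVs of MDA-MB-231, a line from a human breast cancer of the triple-negative kind (2 libraries). All 6 libraries share the recipient line and its growth in DMEM with fetal bovine serum, and both vesicle groups received a set number of EVs per recipient cell. Nothing in the labels says that the libraries of a group came from separate cultures, so every p-value measures the spread between these libraries, which may be technical.

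Mitochondria keep their own ribosome, the mitoribosome, which translates the few proteins encoded by mitochondrial DNA, all of them subunits of the respiratory chain and ATP synthase. Its RNAs come from mitochondrial DNA, whereas each of its proteins is encoded in the nucleus, made in the cytosol and imported. Some of these proteins descend from bacterial ribosomal proteins and others exist only in mitochondria. Of the 76 genes, 49 encode proteins of the large subunit, 26 encode proteins of the small subunit, and Mrps36 is assigned to neither, since its product is known as a part of the 2-oxoglutarate dehydrogenase complex. Mrps30 and Mrps18a are counted with the large subunit, where their products sit in spite of the gene names. By family, 48 belong to bacterial ribosomal protein families and 27 are specific to mitochondria.

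The libraries held 22451173 to 29315530 gene reads, and 14553 to 14856 genes had at least 1 read in a library. Levels are given as normalised reads, the authors' read numbers adjusted to a common library size. All 76 genes passed the filter on low values (1 or more normalised reads in 2 or more libraries), as did 15025 genes in all. Changes are differences of log2(normalised reads + 1) with their standard error, and a call is an adjusted p under 0.05 by limma (Benjamini-Hochberg over all tested genes). Rose and fell refer to such calls, and libraries carry the numbers of their labels. All 10 fibroblast markers were read in every library. Their summed level lay at 458469 and 458801 normalised reads after PBS, 401358 to 412056 after MCF10A EVs and 394452 to 403393 after MDA-MB-231 EVs, and its part in the changes below was not tested. With MDA-MB-231 EVs 6 of the 10 fell and Col3a1 rose, and after MCF10A EVs 7 fell and Col3a1 rose. Col3a1, a fibrillar collagen, held 3962 and 3973, 6882 and 6889 and 5464 and 5434. Of 6 epithelial markers 2, Epcam and Krt18, had no read, and the list summed to 44.6 to 48.7, 34.5 to 40.7 and 27.5 to 37.2, nearly all of it Krt8, which was not called. Cdh1, at a few reads, was listed at 0 in both PBS libraries, at 2.16 and 2.54 after MCF10A EVs and at 4.06 and 2.16 after MDA-MB-231 EVs. It was called higher in both comparisons by limma. No epithelial marker was called higher by edgeR, which tested 1, or by DESeq2, which tested 4. The 1 marker tested by edgeR was called lower after MDA-MB-231 EVs. Of 5 leukocyte markers 2, Emr1 and Cd3e, had no read, and the list summed to 0.926 to 1.09, 2.15 to 2.53 and 3.22 to 4.06. The 4 endothelial markers, mostly Cdh5, summed to 348 to 357, 284 to 332 and 147 to 184. Cdh5 fell after MDA-MB-231 EVs, by -1.12 ± 0.11 against PBS (limma adjusted p = 1.8e-06) and -0.93 ± 0.11 against MCF10A EVs (4.75e-05). With MCF10A EVs it was not called (-0.19 ± 0.11, limma adjusted p = 0.229). In RNA from a whole culture, fewer cells of a type and less RNA per cell cannot be told apart.

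Levels of different genes were compared per kilobase of the longest protein-coding transcript of the mouse annotation (GENCODE vM21), as the mean over the 6 libraries. The 76 genes spanned 92.4 to 3566 normalised reads per kilobase, with a median of 529. The 3 highest were Mrpl33, of the bacterial L33 family of the large subunit, at 3566, Mrpl54 at 2169, and Mrps6, a bacterial-type protein of the small subunit, at 2090. The 3 lowest were Mrpl47 at 92.4, Mrps35 at 94.5 and Mrpl19 at 112. With the median transcript length in place of the longest, Mrpl33 stayed highest and Mrpl47 lowest, whereas Mrps35 moved to 175 and Mrpl20 from 1442 to 2231. Mrps6 shares its strand and part of its span with Slc5a3, so its level and its changes below are uncertain where reads of that gene were counted for it.

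Summed over the 76 genes, the libraries held 57549 and 57113 normalised reads after PBS, 64286 and 64833 after MCF10A EVs, and 64092 and 61790 after MDA-MB-231 EVs. Set against the PBS mean, the EV libraries lay at 112% and 113% after MCF10A EVs and at 112% and 108% after MDA-MB-231 EVs. All 4 EV libraries thus lay above both PBS libraries. The large subunit genes alone lay at 112% and 113%, then 112% and 108%, and the small subunit genes at 113% and 114%, then 112% and 108%. The comparisons that follow use the same PBS libraries, so the changes in the MCF10A EV and MDA-MB-231 EV groups are not independent of each other.

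With MDA-MB-231 EVs against PBS, 33 of the 76 genes rose and 2 fell, Mrpl33 and Mrpl53. That is 43.4% of the genes higher and 2.63% lower, where 17.9% of all tested genes were called higher and 16.9% lower. With a stricter filter on low values, 5 CPM, 34 of the 76 genes rose and 3 fell. That filter kept 10104 genes, the 76 among them, of which 27.6% were called higher and 24.6% lower. The share of all genes called higher thus depended on the filter, and was nearer to that of the 76 genes with the stricter one. The median change of the 76 genes was 0.14 on the log2 scale, a difference of 10.0%, beside 0.01 for all tested genes, and 63 of the 76 had a positive change. The genes that rose did so by 8.86% to 34.2%. The count of 33 dropped to 15 with limma without a mean-variance trend, where 10.9% of all genes were called higher, and to 15 with DESeq2 on the whole reads, where 10.8% were (0 were called lower, beside 12.1% of all genes). Shares for DESeq2, here and below, are of all 16208 genes with a read, which also hold genes below the filter on low values. The median change of the 76 genes was 0.11 without PBS library 2 and 0.1 without MDA-MB-231 EV library 1, beside 0.004 and 0.02 for all genes. Scaled by library totals alone, 46 rose and 0 fell, beside 26.5% of all genes higher and 12.6% lower, and the median of all genes then lay at 0.07; edgeR called 34 higher and 3 lower, beside 23.0% and 22.0% of the 12352 genes it tested.

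Mrpl12, the stalk protein of the large subunit that receives translation factors, showed the largest rise. It held 1265 and 1288 normalised reads after PBS and 1743 and 1684 after MDA-MB-231 EVs, a log2 change of 0.42 ± 0.041 (limma adjusted p = 9.4e-07). Mrpl18, a large subunit protein of the bacterial L18 family, went from 1011 and 1049 to 1363 and 1282, a change of 0.36 ± 0.048 (limma adjusted p = 2.58e-05). In both genes the PBS libraries lay close together and well below both EV libraries. Mrpl15, of the bacterial L15 family, held 999 and 1027 after PBS and 1311 and 1233 after MDA-MB-231 EVs (0.33 ± 0.048, limma adjusted p = 6.59e-05). Mrpl16, of the bacterial L16 family, held 665 and 605 and then 832 and 744 (0.31 ± 0.069, limma adjusted p = 0.00246). Its libraries did not overlap between the groups but spread more widely within them, and its call was lost without the trend (adjusted p = 0.0862). Mrpl19, of the bacterial L19 family, rose from 490 and 480 to 582 and 615, by 0.30 ± 0.065 (limma adjusted p = 0.00186). On the stranded libraries it is uncertain which strand was counted, and Mrpl12, Mrpl18 and Mrpl19 overlap the antisense genes Gm16755, Tcp1 and Gcfc2.

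Among small subunit genes the largest rises after MDA-MB-231 EVs were those of Mrps15 and Mrps35. Mrps15, of the bacterial S15 family that binds the small subunit RNA, held 720 and 691 normalised reads after PBS and 859 and 882 after MDA-MB-231 EVs, a log2 change of 0.30 ± 0.054 (limma adjusted p = 0.000375). Mrps35, a protein found only in mitochondrial ribosomes, held 361 and 344 and 421 and 449 (0.30 ± 0.078, limma adjusted p = 0.00693). Neither gene overlapped between the groups, but the call of Mrps35 was lost without PBS library 2 (adjusted p = 0.0605), without MDA-MB-231 EV library 2 (0.0635) and with DESeq2 (0.0671). Mrps22, a mitochondria-specific protein whose human counterpart is mutated in an oxidative phosphorylation disorder, went from 547 and 557 to 668 and 645 (0.25 ± 0.059, limma adjusted p = 0.0036, and 0.0557 with DESeq2). Mrps6 rose from 1569 and 1527 to 1813 and 1820, by 0.23 ± 0.038 (limma adjusted p = 0.000214). Mrps30, a former small subunit name for a large subunit protein, rose by 0.15 ± 0.047, from 991 and 979 to 1111 and 1081 (limma adjusted p = 0.0187). Its call did not hold without PBS library 1 (adjusted p = 0.0611), PBS library 2 (0.0942) or MDA-MB-231 EV library 1 (0.105).

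**Figure D1:**
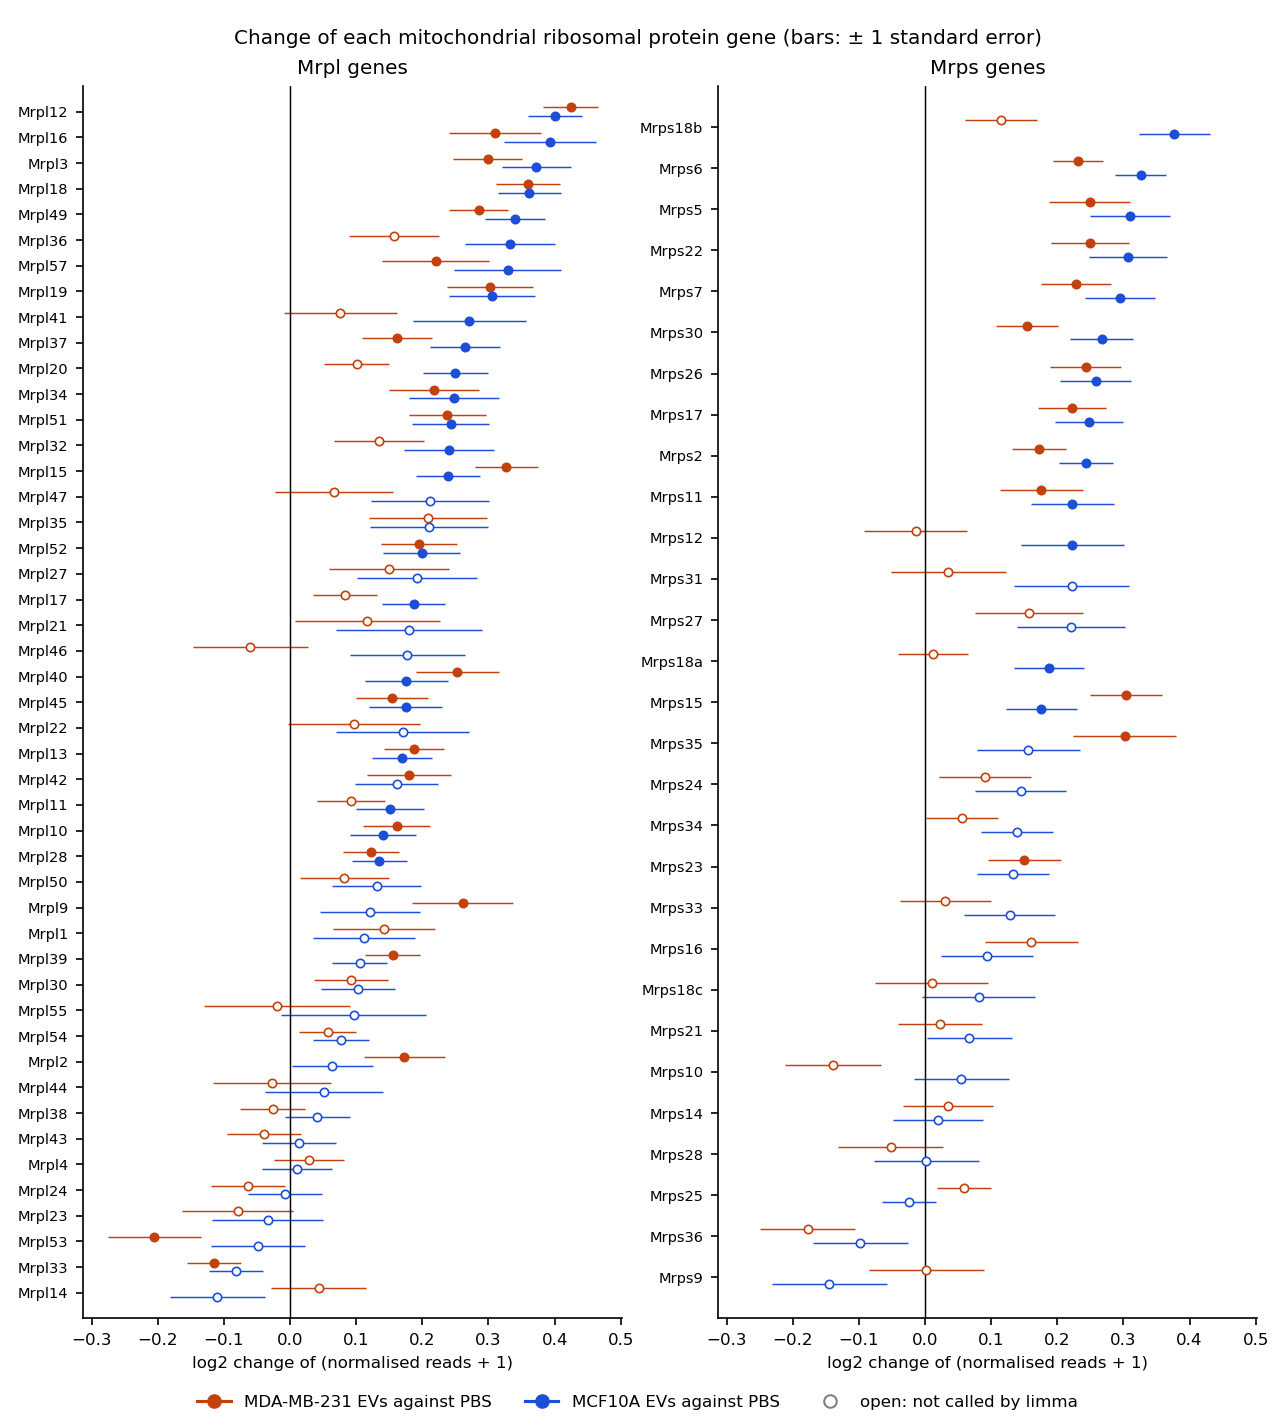
Log2 change (horizontal axis, of normalised reads + 1) of each of the 76 genes against PBS, after MDA-MB-231 EVs in orange and MCF10A EVs in blue, bars of 1 standard error and filled points for genes called by limma. Genes are ordered by the change after MCF10A EVs; 33 and 36 points are filled to the right of zero, and the only filled points to its left are Mrpl53 and Mrpl33 after MDA-MB-231 EVs.

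Mrpl53 and Mrpl33 fell after MDA-MB-231 EVs, and both calls were weak. Mrpl53, a mitochondria-specific large subunit protein, held 613 and 558 normalised reads after PBS and 506 and 508 after MDA-MB-231 EVs, a log2 change of -0.21 ± 0.071 (limma adjusted p = 0.0356). It lost its call without PBS library 1 (adjusted p = 0.272) or without either MDA-MB-231 EV library (0.106 and 0.0941), without the trend (0.13), with DESeq2 (0.141) and with library totals (0.139). Mrpl33 held 1731 and 1837 and 1648 and 1643 (-0.12 ± 0.041, limma adjusted p = 0.0419), with both EV libraries below both PBS libraries. Its call was lost in 10 of 17 other settings, among them each fit without 1 library except that without PBS library 1, where the adjusted p ran up to 0.313. With MCF10A EVs the values were 592 and 540 for Mrpl53 (-0.05 ± 0.071, limma adjusted p = 0.666) and 1678 and 1690 for Mrpl33 (-0.08 ± 0.041, limma adjusted p = 0.154). Mrps36 was not called, at 714 and 823 after PBS, 755 and 679 after MCF10A EVs and 679 and 677 after MDA-MB-231 EVs. Its change after MDA-MB-231 EVs was -0.18 ± 0.072 (limma adjusted p = 0.0718), and it passed with edgeR (0.0294) and without PBS library 1 (0.0196).

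With MCF10A EVs against PBS, 36 of the 76 genes rose and 0 fell. That is 47.4% higher, where 17.1% of all tested genes were called higher and 14.6% lower. With the filter of 5 CPM 42 of the 76 genes rose and 0 fell, beside 26.8% and 21.2% of the 10104 genes kept. At an unadjusted limma p under 0.05, 44 were higher and 0 lower, beside 3219 and 2865 of all 15025 tested genes. With edgeR 38 were called higher and 0 lower, beside 21.4% and 20.4% of all genes, and with DESeq2 21 higher and 0 lower, beside 10.2% and 9.96%. The median change of the 76 genes was 0.18, a difference of 12.9%, beside 0.00 for all tested genes, and 68 had a positive change. The rises ran from 9.78% to 32.0%. The count was 18 with limma without the trend, where 8.17% of all genes were called higher. Without MCF10A EV library 2 the median change of the 76 genes was 0.16, beside 0.008 for all genes.

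Mrpl12 again held the largest change, at 1688 and 1681 normalised reads after MCF10A EVs against 1265 and 1288 after PBS, 0.40 ± 0.041 on the log2 scale (limma adjusted p = 3.53e-06). Mrpl16 held 800 and 867 (0.39 ± 0.069, limma adjusted p = 0.000486, and 0.0625 without the trend). Mrpl3, whose bacterial relative lies near the peptidyl transferase centre, held 994 and 1071 after PBS and 1309 and 1362 after MCF10A EVs (0.37 ± 0.052, limma adjusted p = 6.8e-05). The MDA-MB-231 EV libraries of Mrpl3 held 1314 and 1226, also above both PBS libraries (0.30 ± 0.052, limma adjusted p = 0.000335). Mrpl18 held 1304 and 1344 after MCF10A EVs (0.36 ± 0.048, limma adjusted p = 3.82e-05). Mrpl49, a large subunit protein specific to mitochondria, held 1077 and 1095 after PBS and 1357 and 1394 after MCF10A EVs (0.34 ± 0.045, limma adjusted p = 4.22e-05). Its MDA-MB-231 EV libraries held 1358 and 1290 (0.28 ± 0.045, limma adjusted p = 0.000149). In each of Mrpl12, Mrpl3, Mrpl18 and Mrpl49 the 4 EV libraries lay above both PBS libraries.

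Among small subunit genes, Mrps6 rose to 1936 and 1943 normalised reads after MCF10A EVs (0.33 ± 0.038, limma adjusted p = 1.35e-05), and Mrps22 to 684 and 682 (0.31 ± 0.059, limma adjusted p = 0.000947). Mrps15 held 787 and 806 (0.18 ± 0.054, limma adjusted p = 0.0213), below its MDA-MB-231 EV libraries. That call did not hold without PBS library 2 (adjusted p = 0.137) or without either MCF10A EV library (0.0549 and 0.117). Mrps30 held 1208 and 1163 (0.27 ± 0.047, limma adjusted p = 0.000466). Of the large subunit genes, Mrpl15 held 1183 and 1208 (0.24 ± 0.048, limma adjusted p = 0.00134) and Mrpl19 held 582 and 618 (0.31 ± 0.065, limma adjusted p = 0.0021). Mrps35, called with the cancer cell vesicles, held 381 and 405 after MCF10A EVs, 0.16 ± 0.078 from PBS (limma adjusted p = 0.153).

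**Figure D2:**
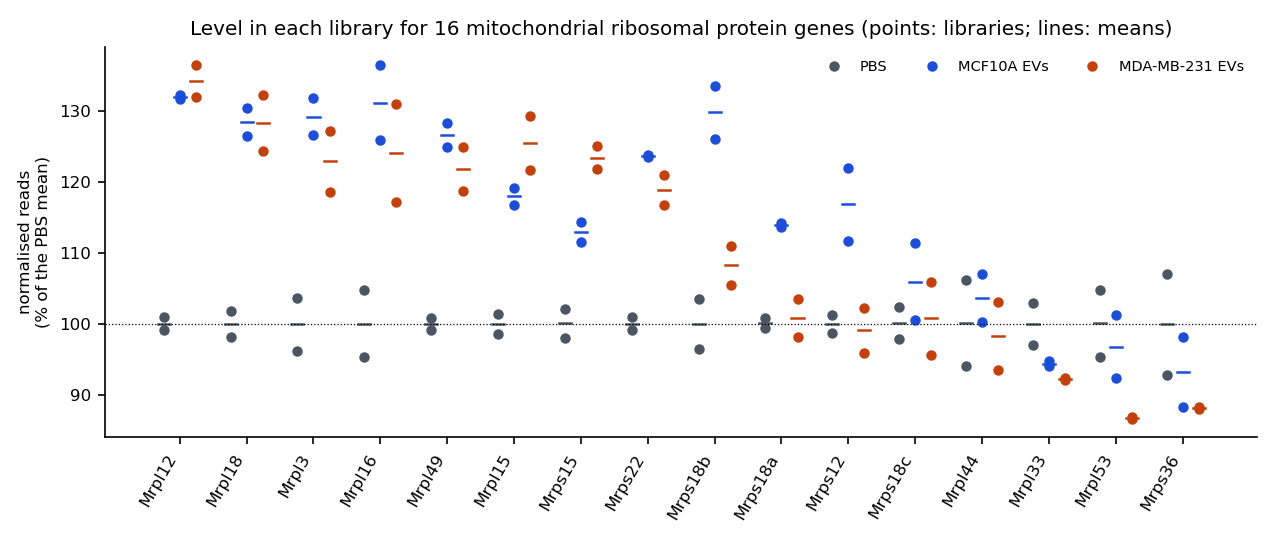
Level in each library as a percentage of the gene's PBS mean (vertical axis) for 16 genes, with 1 point per library, a short line at each group's mean, and PBS in grey, MCF10A EVs in blue and MDA-MB-231 EVs in orange. For Mrpl12 to Mrps22 the EV points lie above the PBS points, for Mrps18b, Mrps18a and Mrps12 the MCF10A EV points lie above the others, and for Mrpl53 the MDA-MB-231 EV points lie lowest.

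The vesicle groups were also compared directly. With MDA-MB-231 EVs against MCF10A EVs, 0 of the 76 genes were higher and 3 lower, Mrps18b, Mrps12 and Mrps18a, where 6.84% of all tested genes were called higher and 10.1% lower, so the share of 3.95% lower lay below that of all genes. At an unadjusted limma p under 0.05, 1 gene was higher and 12 were lower, beside 1928 and 2390 of all 15025 tested genes. With edgeR 0 were called higher and 5 lower, beside 10.9% and 13.2% of all genes, and with DESeq2 0 higher and 1 lower, beside 3.56% and 5.79%. The median change was -0.05, beside -0.00 for all tested genes, and 57 of the 76 changes were negative. That median was -0.08 without MDA-MB-231 EV library 1, -0.02 without MDA-MB-231 EV library 2 and -0.01 with library totals. The median of all genes was then -0.0, 0.0 and 0.04. The count of 3 was 0 without the trend, where 1.69% of all genes were called lower.

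Mrps18b is 1 of 3 mouse genes of the bacterial S18 family. It held 859 and 921 normalised reads after PBS, 1189 and 1123 after MCF10A EVs and 988 and 939 after MDA-MB-231 EVs. The MCF10A EV libraries thus stood above all others, and the MDA-MB-231 EV libraries only just above PBS. The change was 0.38 ± 0.054 for MCF10A EVs against PBS (limma adjusted p = 8.32e-05), 0.12 ± 0.054 for MDA-MB-231 EVs against PBS (0.119) and -0.26 ± 0.054 between the vesicle groups (0.0036). The direct difference held in 15 of 17 other settings and was lost without MCF10A EV library 1 (adjusted p = 0.0652) and without the trend (0.12). Scaled by library totals, the change for MDA-MB-231 EVs against PBS was 0.18 and was called (0.0138). The gene overlaps the antisense RNA gene Gm16279.

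Its relative Mrps18a, whose product lies in the large subunit, held 777 and 788 after PBS, 893 and 889 after MCF10A EVs and 810 and 768 after MDA-MB-231 EVs. It rose after MCF10A EVs by 0.19 ± 0.053 (limma adjusted p = 0.0137), differed by 0.01 ± 0.053 after MDA-MB-231 EVs (0.89), and by -0.18 ± 0.053 between the vesicle groups (0.0345). The direct call was lost without PBS library 1 (adjusted p = 0.0505), without either MCF10A EV library (0.147 and 0.119) or without MDA-MB-231 EV library 2 (0.221). The rise over PBS was lost without any 1 of the PBS or MCF10A EV libraries, at an adjusted p of up to 0.0784. The third paralog, Mrps18c, was called in no comparison. Its libraries overlapped, at 361 and 378 after PBS, 371 and 411 after MCF10A EVs and 391 and 353 after MDA-MB-231 EVs, with changes of 0.08 ± 0.085 and 0.01 ± 0.085 (limma adjusted p = 0.526 and 0.955). Whether the paralogs differ from each other was not tested.

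Mrps12 encodes the small subunit protein at the decoding centre, whose bacterial form S12 is the site of streptomycin resistance. It held 389 and 399 normalised reads after PBS, 440 and 481 after MCF10A EVs and 403 and 378 after MDA-MB-231 EVs, so the MCF10A EV libraries lay above the other 4, which overlapped. It rose after MCF10A EVs by 0.22 ± 0.078 (limma adjusted p = 0.0398), with -0.01 ± 0.078 for MDA-MB-231 EVs (0.918) and -0.24 ± 0.078 between the vesicle groups (0.0489). The direct call held in only 3 of 17 other settings and in none of the 6 fits without 1 library, where its adjusted p ran from 0.0603 to 0.289. The rise over PBS was lost without PBS library 1 (0.163), PBS library 2 (0.1) or MCF10A EV library 2 (0.259).

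Other genes were not called in any comparison. Mrpl44, a large subunit protein with a ribonuclease-like fold, held 376 and 333 normalised reads after PBS, 355 and 379 after MCF10A EVs and 365 and 331 after MDA-MB-231 EVs, with all groups overlapping. Its changes were 0.05 ± 0.089 and -0.03 ± 0.089 (limma adjusted p = 0.717 and 0.853). Mrps16, of the bacterial S16 family, held 550 and 527, 571 and 578 and 641 and 566, with each EV library above both PBS libraries, yet its changes of 0.09 ± 0.07 and 0.16 ± 0.07 were not called (0.354 and 0.0917). Mrps16 passed after MDA-MB-231 EVs without MDA-MB-231 EV library 2 (adjusted p = 0.0241) and with library totals (0.0171). Chosen after their values were seen, Mrpl4 lay at 803 and 812 after PBS, 809 and 818 after MCF10A EVs and 802 and 845 after MDA-MB-231 EVs, and Mrps9 had the lowest change of all after MCF10A EVs, from 372 and 426 to 343 and 377 (-0.15 ± 0.087, limma adjusted p = 0.234). In all, 41 genes after MDA-MB-231 EVs and 40 after MCF10A EVs missed the threshold, which does not show that they were unchanged.

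By subunit, 22 of 49 large subunit genes rose and 2 fell after MDA-MB-231 EVs, and 11 of 26 small subunit genes rose and 0 fell, with 12 higher and 0 lower at an unadjusted limma p under 0.05 and 5 and 0 with DESeq2. The medians were 0.14 and 0.13. With MCF10A EVs 25 of 49 large subunit genes and 11 of 26 small subunit genes rose, with medians of 0.18 and 0.17. By origin, 19 of 48 genes of bacterial families rose after MDA-MB-231 EVs and 25 after MCF10A EVs, with medians of 0.13 and 0.18. Of the 27 mitochondria-specific genes, 14 and 11 rose, with medians of 0.15 and 0.17. Of all tested genes, 17.9% were called higher and 16.9% lower after MDA-MB-231 EVs, and 17.1% and 14.6% after MCF10A EVs. For MDA-MB-231 EVs, DESeq2 called 10.8% of all genes higher and 12.1% lower. At an unadjusted limma p under 0.05, 3311 of all 15025 tested genes were higher and 3110 lower in that comparison. No difference between these classes was tested.

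Ribosomal proteins of the cytosol, which form the ribosome that translates nuclear messages, were counted in the same libraries. Of 75 cytosolic ribosomal protein genes, 2 rose and 12 fell after MDA-MB-231 EVs, and 0 rose and 23 fell after MCF10A EVs, with 1 higher and 31 lower at an unadjusted limma p under 0.05, and 0 higher and 33 lower with edgeR. The 12 genes are 16.0% of the list, near the 16.9% of all tested genes called lower, and the 23 are 30.7%, beside 14.6%. After MCF10A EVs, 3219 of all 15025 tested genes were higher and 2865 lower at the unadjusted cut. With edgeR 21.4% of all genes were higher and 20.4% lower. Their medians were -0.03 and -0.06, beside 0.14 and 0.18 for the mitochondrial set. Reads of this family are uncertain, since many processed pseudogenes share their sequence. For the mitochondrial set the annotation names 5 pseudogenes after 2 of the 76 genes. Pseudogenes listed under other names were not counted, so the families cannot be compared in this respect.

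**Figure D3:**
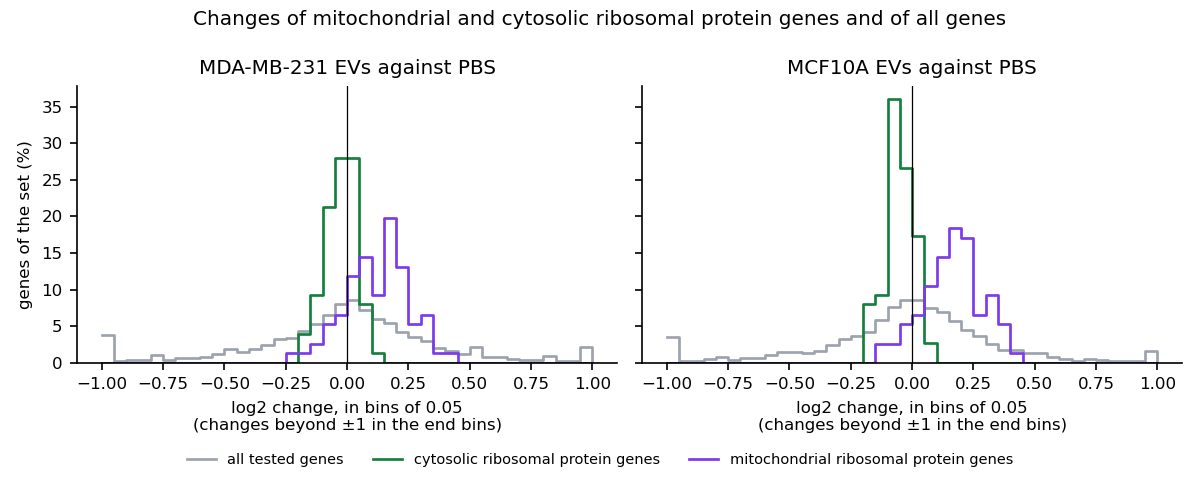
Share of genes (vertical axis, percent of each set) by log2 change in bins of 0.05 (horizontal axis), for all 15025 tested genes in grey, 75 cytosolic ribosomal protein genes in green and the 76 mitochondrial ribosomal protein genes in violet. In both panels the violet line lies to the right, with medians of 0.14 and 0.18, and the green line close to or left of zero, with medians of -0.03 and -0.06.

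Mitoribosomal proteins whose genes carry other names were followed as a separate list of 6, which the symbol rule does not reach. With MDA-MB-231 EVs 1, Ptcd3, rose, and after MCF10A EVs 2, Ptcd3 and Gadd45gip1, rose, with none lower by limma, edgeR or DESeq2 and 0 and 1 lower at an unadjusted limma p under 0.05. These counts are 16.7% and 33.3% of a short list, beside 17.9% and 17.1% of all tested genes called higher. Ptcd3, an RNA-binding protein of the small subunit, held 1151 and 1143 normalised reads after PBS, 1532 and 1493 after MCF10A EVs and 1448 and 1447 after MDA-MB-231 EVs (0.40 ± 0.042 and 0.34 ± 0.042, limma adjusted p = 4.65e-06 and 1.38e-05). Its EV libraries all lay above the PBS libraries, as those of Mrpl12 did. Gadd45gip1, of the large subunit, held 1186 and 1131, 1283 and 1253 and 1207 and 1195. Its call after MCF10A EVs (0.13 ± 0.046, limma adjusted p = 0.0411) was lost without any 1 of the PBS or MCF10A EV libraries, at an adjusted p of up to 0.251. The list's medians were 0.04 and 0.02, beside 0.14 and 0.18 for the 76 genes.

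The genes that work with the mitoribosome were counted in the same way. Of 19 mitochondrial translation factors and related proteins, 10 rose after MDA-MB-231 EVs and 11 after MCF10A EVs, with medians of 0.23 and 0.26 and none lower by limma, edgeR or DESeq2 or at an unadjusted limma p under 0.05; DESeq2 called 4 and 6 higher. The limma counts are 52.6% and 57.9% of the list, beside 17.9% and 17.1% of all tested genes. C1qbp, a matrix protein needed for mitochondrial translation, held 3218 and 3228 normalised reads after PBS, 4284 and 4357 after MCF10A EVs and 4332 and 4137 after MDA-MB-231 EVs (0.42 ± 0.033 and 0.39 ± 0.033, limma adjusted p = 2.67e-07 and 2.53e-07). Gfm1, the elongation factor G of mitochondria, held 1624 and 1547, 1881 and 1970 and 2065 and 2028 (0.28 ± 0.042 and 0.37 ± 0.042, limma adjusted p = 0.000107 and 4.87e-06). In both genes every EV library lay above both PBS libraries. Guf1, a translation GTPase, was the 1 gene of the list that differed between the vesicle groups, at 639 and 698 after PBS, 742 and 608 after MCF10A EVs and 801 and 818 after MDA-MB-231 EVs (0.27 ± 0.08, limma adjusted p = 0.0305). That call was lost without MCF10A EV library 2 (adjusted p = 0.336) or without either MDA-MB-231 EV library (0.0724 and 0.131).

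Of 24 measured mitoribosome assembly factors, 6 rose after MDA-MB-231 EVs and 7 after MCF10A EVs, with medians of 0.07 and 0.16, none lower by limma, edgeR or DESeq2, and 1 and 0 lower at an unadjusted limma p under 0.05. Of all tested genes, 17.9% and 17.1% were called higher by limma. DESeq2 called 3 and 5 higher, where 10.8% and 10.2% of all genes were. Wbscr16, a factor of large subunit assembly, held 351 and 318 normalised reads after PBS, 478 and 450 after MCF10A EVs and 443 and 457 after MDA-MB-231 EVs (0.47 ± 0.078 and 0.43 ± 0.078, limma adjusted p = 0.000296 and 0.000505). Noa1, a GTPase of small subunit assembly, held 658 and 628, 796 and 805 and 806 and 794 (0.32 ± 0.055 and 0.32 ± 0.055, limma adjusted p = 0.000418 and 0.000321). Mterf4, which brings a methyltransferase to the large subunit, held 384 and 352 after PBS, 397 and 369 after MCF10A EVs and 493 and 492 after MDA-MB-231 EVs. Its MDA-MB-231 EV libraries stood above the other 4, with 0.42 ± 0.078 against PBS (limma adjusted p = 0.000539) and 0.36 ± 0.078 against MCF10A EVs (0.00458). That direct call was lost without MCF10A EV library 2 (adjusted p = 0.0565).

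Of 15 genes for copying and expressing mitochondrial DNA, 7 rose after MDA-MB-231 EVs and 8 after MCF10A EVs, with medians of 0.17 and 0.24 and none lower by limma, edgeR or DESeq2 or at an unadjusted limma p under 0.05; DESeq2 called 4 and 6 higher. The limma counts are 46.7% and 53.3% of the list, beside the same 17.9% and 17.1%. Lrpprc, which stabilises mitochondrial messenger RNAs, held 2962 and 2986 normalised reads after PBS, 3797 and 3807 after MCF10A EVs and 3914 and 3755 after MDA-MB-231 EVs (0.35 ± 0.033 and 0.37 ± 0.033, limma adjusted p = 1.53e-06 and 5.07e-07). Tfam, which packages mitochondrial DNA and starts its transcription, held 762 and 813, 993 and 925 and 921 and 884 (0.28 ± 0.057 and 0.20 ± 0.057, limma adjusted p = 0.00135 and 0.0136). The EV libraries of both genes lay above the PBS libraries. The call of Tfam after MDA-MB-231 EVs was lost without PBS library 1 (adjusted p = 0.136) or MDA-MB-231 EV library 1 (0.0923).

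**Figure D4:**
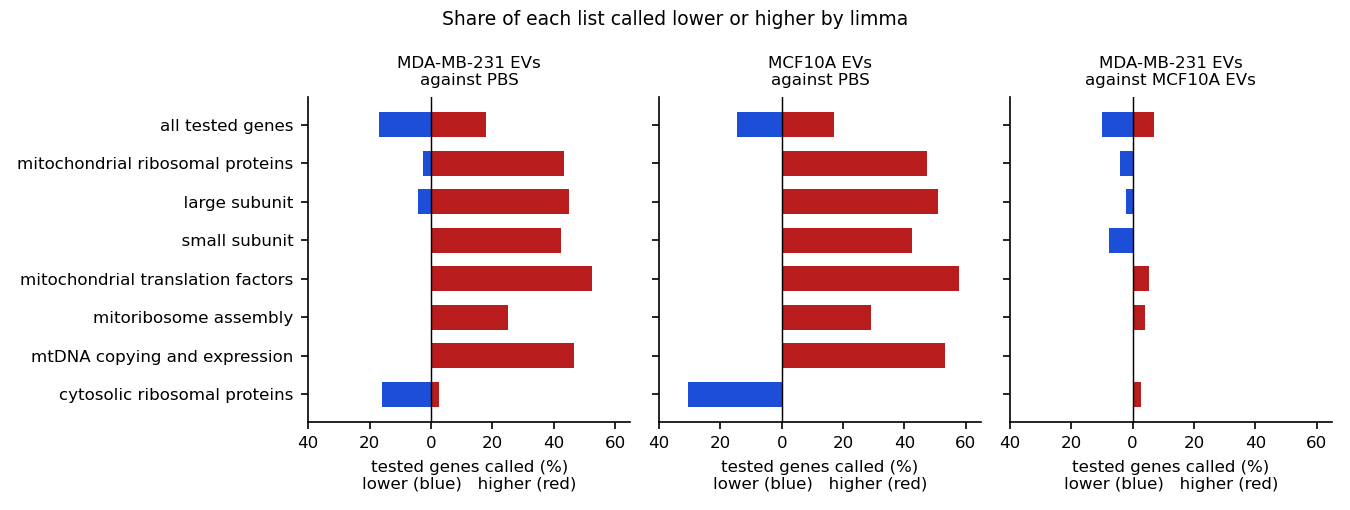
Share of each list's tested genes called lower (blue, to the left) or higher (red, to the right) by limma, in percent, for the 3 comparisons. The mitochondrial ribosomal proteins reach 43.4% and 47.4% higher against PBS, beside 17.9% and 17.1% of all tested genes. The cytosolic ribosomal proteins reach 16.0% and 30.7% lower, beside 16.9% and 14.6% of all tested genes. With the filter of 5 CPM, not drawn, 27.6% and 26.8% of all genes kept were called higher and 24.6% and 21.2% lower.

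Factors known to act on nuclear genes for mitochondria were listed as well, and 8 of them were measured. With MDA-MB-231 EVs 4 rose, Pprc1, Ppargc1b, Nrf1 and Gabpa, and 1, Myc, fell. With MCF10A EVs 2 rose, Pprc1 and Ppargc1b, and 0 fell, with 4 higher and 0 lower at an unadjusted limma p under 0.05 and 2 higher and 0 lower with edgeR. Of all tested genes, 17.9% and 17.1% were called higher and 16.9% and 14.6% lower. With MDA-MB-231 EVs against MCF10A EVs, Gabpa was higher (0.12 ± 0.039, limma adjusted p = 0.046). Myc (-0.19 ± 0.042, limma adjusted p = 0.00515) and Pprc1 (-0.14 ± 0.039, 0.0216) were lower. Between the vesicle groups 6.84% of all tested genes were called higher and 10.1% lower. Each call was lost without the trend (0.281, 0.108 and 0.188). DESeq2 called only Myc, beside 3.56% of all genes higher and 5.79% lower. Pprc1, a coactivator of the PGC-1 family, held 1969 and 1933 normalised reads after PBS, 2502 and 2576 after MCF10A EVs and 2240 and 2366 after MDA-MB-231 EVs (0.38 ± 0.039 and 0.24 ± 0.039, limma adjusted p = 3.81e-06 and 0.000183). Ppargc1b, another coactivator of that family, held 91.4 and 102, 128 and 146 and 135 and 170 (0.50 ± 0.15 and 0.65 ± 0.15, limma adjusted p = 0.021 and 0.00374). Both had all EV libraries above PBS, but the calls of Ppargc1b were lost without PBS library 1 (0.135) or MCF10A EV library 2 (0.161) for MCF10A EVs, and without MDA-MB-231 EV library 2 (0.0554) for MDA-MB-231 EVs.

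Nrf1, nuclear respiratory factor 1, held 662 and 697 normalised reads after PBS, 748 and 761 after MCF10A EVs and 777 and 776 after MDA-MB-231 EVs (0.19 ± 0.056 after MDA-MB-231 EVs, limma adjusted p = 0.0136). That call was lost without PBS library 1 (adjusted p = 0.113) or without either MDA-MB-231 EV library (0.0548 and 0.0521). Gabpa, the ETS-family subunit of the factor GABP, held 3039 and 3237, 3210 and 3066 and 3466 and 3356, with 0.12 ± 0.039 for MDA-MB-231 EVs (limma adjusted p = 0.0245), lost without PBS library 1 (0.263) or MDA-MB-231 EV library 1 (0.136). Myc, a growth factor-responsive transcription factor, held 1556 and 1575, 1590 and 1658 and 1444 and 1396, and fell by 0.14 ± 0.042 after MDA-MB-231 EVs (limma adjusted p = 0.0168). This fall was lost without PBS library 1 (0.0598), PBS library 2 (0.0954) or MDA-MB-231 EV library 2 (0.106).

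Promoter windows of 300 bases, from 250 before to 50 after the start of the gene, were available from RefSeq (GRCm38.p6) for 67 of the 76 genes. These were searched on both strands for short motifs known from promoters of genes for mitochondria: the core of the NRF1 site (GCGCATGC), the ETS core bound by GABP (CCGGAAG) and the YY1 motif (AAGATGGC), and for comparison the E-box (CACGTG), the CCAAT box (CCAAT) and the GC box (GGGCGG). The palindromic form of the NRF1 site holds overlapping cores on both strands. The windows of 6 genes are shown 5′ to 3′ on the gene's strand, with NRF1, ETS and YY1 matches in capitals: the gene with the largest rise, the 3 genes that differed between the vesicle groups, a gene that rose in both vesicle groups with an ETS match, and Mrpl53, which fell.
Mrpl12, chr11:120484387-120484686, forward strand: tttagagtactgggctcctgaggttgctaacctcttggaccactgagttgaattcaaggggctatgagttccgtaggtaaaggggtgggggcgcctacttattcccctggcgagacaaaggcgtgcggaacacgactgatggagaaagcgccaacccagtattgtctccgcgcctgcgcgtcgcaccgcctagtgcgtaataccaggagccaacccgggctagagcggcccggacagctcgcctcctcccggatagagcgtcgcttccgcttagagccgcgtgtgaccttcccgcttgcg
Mrpl3, chr9:105053018-105053317, forward strand: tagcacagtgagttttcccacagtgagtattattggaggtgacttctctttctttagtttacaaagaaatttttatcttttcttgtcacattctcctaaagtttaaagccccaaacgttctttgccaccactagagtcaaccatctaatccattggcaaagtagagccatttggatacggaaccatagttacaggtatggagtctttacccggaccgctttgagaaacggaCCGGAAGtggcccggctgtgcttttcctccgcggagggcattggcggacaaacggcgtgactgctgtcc
Mrps18b, chr17:35916391-35916690, reverse strand: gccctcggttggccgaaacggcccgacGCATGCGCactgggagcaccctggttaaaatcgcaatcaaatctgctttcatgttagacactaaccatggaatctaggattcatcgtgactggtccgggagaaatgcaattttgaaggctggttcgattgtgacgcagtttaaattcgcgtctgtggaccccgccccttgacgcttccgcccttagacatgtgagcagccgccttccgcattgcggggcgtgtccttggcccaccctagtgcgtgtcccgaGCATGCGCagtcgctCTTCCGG
Mrps18a, chr17:46110754-46111053, forward strand: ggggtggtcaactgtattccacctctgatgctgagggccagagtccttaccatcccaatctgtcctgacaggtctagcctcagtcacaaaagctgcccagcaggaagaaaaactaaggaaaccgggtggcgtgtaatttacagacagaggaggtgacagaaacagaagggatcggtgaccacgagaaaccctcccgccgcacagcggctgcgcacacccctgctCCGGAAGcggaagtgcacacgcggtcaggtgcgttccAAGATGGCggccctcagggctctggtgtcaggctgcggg
Mrps12, chr7:28741772-28742071, reverse strand: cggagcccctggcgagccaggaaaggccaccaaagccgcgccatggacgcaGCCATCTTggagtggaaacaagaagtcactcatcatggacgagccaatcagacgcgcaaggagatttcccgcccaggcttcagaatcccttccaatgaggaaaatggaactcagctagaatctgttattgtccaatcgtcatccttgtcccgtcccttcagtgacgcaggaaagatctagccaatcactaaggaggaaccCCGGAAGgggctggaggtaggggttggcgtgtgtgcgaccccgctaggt
Mrpl53, chr6:83108858-83109157, forward strand: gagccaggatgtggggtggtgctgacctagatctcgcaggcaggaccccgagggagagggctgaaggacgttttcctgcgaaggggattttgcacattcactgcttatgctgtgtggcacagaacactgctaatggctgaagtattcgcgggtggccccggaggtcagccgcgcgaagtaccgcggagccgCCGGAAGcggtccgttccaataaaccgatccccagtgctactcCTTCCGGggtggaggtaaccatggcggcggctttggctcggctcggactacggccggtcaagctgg
The window of Mrpl12 held none of the 3 motifs. That of Mrpl3 held 1 ETS match, Mrps18b 2 NRF1 matches and 1 ETS match (its RefSeq start lies upstream of the GENCODE start), Mrps18a and Mrps12 1 ETS and 1 YY1 match each, and Mrpl53 2 ETS matches.

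The ETS core was found in 24 of the 67 windows, 35.8%, beside 17.4% of the 11277 tested genes with a window and 9.93% of all 27025 genes with one. The YY1 motif was in 12, or 17.9%, beside 4.59% and 3.19%, and the NRF1 core in 8, or 11.9%, beside 5.33% and 3.05%. Any of the 3 was in 36 windows, 53.7%, beside 24.8% and 14.9%. The E-box was in 5, or 7.46%, beside 10.8% and 8.09%, and the CCAAT box in 27, or 40.3%, beside 43.2% and 41.1%. The GC box was in 33, or 49.3%, which lay between 62.5% of the tested genes and 38.2% of all genes. No test was made of these shares, and a match is a run of letters, not a bound site.

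**Figure D5:**
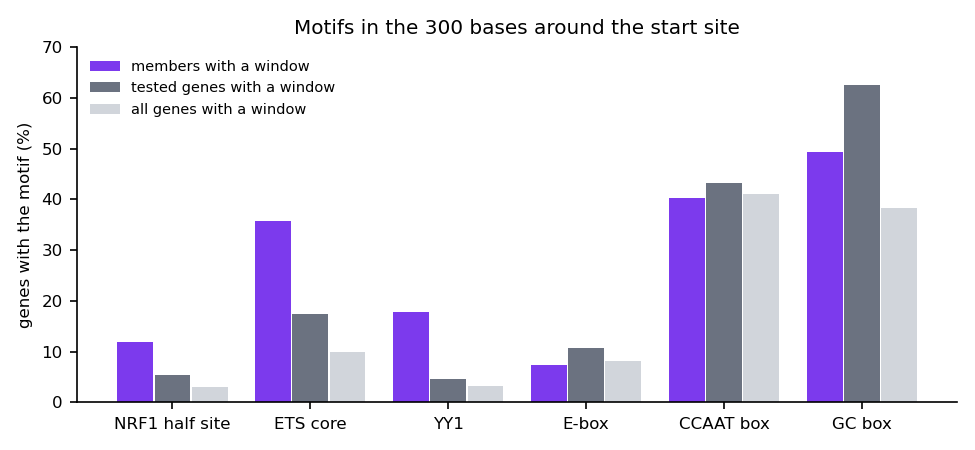
Share of genes whose 300-base window holds each motif (vertical axis, percent), for the 67 mitochondrial ribosomal protein genes with a window, the 11277 tested genes and all 27025 genes with one. The violet bars stand highest for the ETS core (35.8%), YY1 (17.9%) and the NRF1 core (11.9%), and not for the E-box, CCAAT or GC box.

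The calls were also counted by motif. Of the 36 genes with an NRF1, ETS or YY1 match, 17 rose after MDA-MB-231 EVs and 19 after MCF10A EVs, with medians of 0.16 and 0.20. Of the 31 without, 12 and 14 rose, with medians of 0.09 and 0.15. Of the 24 genes with an ETS match 9 and 12 rose, with medians of 0.13 and 0.19, and of the 43 without it 20 and 21 rose, with medians of 0.14 and 0.18. Of the 12 genes with a YY1 match 5 and 8 rose, with medians of 0.16 and 0.22. Of the 55 without it 24 and 25 rose, with medians of 0.12 and 0.17. Of the 8 with an NRF1 core 3 and 4 rose, with medians of 0.12 and 0.16. Of the 59 without it 26 and 29 rose, with medians of 0.15 and 0.18. The comparison motifs were counted too. With a GC box 16 and 18 of 33 genes rose (medians 0.16 and 0.18), and without it 13 and 15 of 34 (0.12 and 0.18). With an E-box 2 and 3 of 5 genes rose (0.16 and 0.25), and without it 27 and 30 of 62 (0.14 and 0.18). With a CCAAT box 11 and 15 of 27 genes rose (0.12 and 0.18), and without it 18 and 18 of 40 (0.15 and 0.18). Of all tested genes, 17.9% and 17.1% were called higher in the 2 comparisons. Calls of other genes with the same motifs were not counted, and the differences between the motif classes were not tested.

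Some of the genes start beside another gene on the opposite strand. In the annotation, 18 of the 76 genes, 23.7%, had a divergent protein-coding neighbour whose start lay within 1000 bases, beside 7.06% of all protein-coding genes in the table (1379 of 19519). Those 19519 genes include ones that did not pass the filter on low values, which all 76 genes did, so the shares are of unlike sets. No share was taken over the tested genes alone. All 18 neighbours were tested, and 5 rose and 2 fell after MDA-MB-231 EVs, and 6 rose and 3 fell after MCF10A EVs. Of all tested genes, 17.9% were called higher and 16.9% lower in the first comparison, and 17.1% and 14.6% in the second. The pairs below were chosen after their values were seen. Mrps18b shares its start region with Ppp1r10, a regulator of protein phosphatase, which held 2473 and 2452 normalised reads after PBS, 2153 and 2166 after MCF10A EVs and 1909 and 1778 after MDA-MB-231 EVs. Ppp1r10 fell in both vesicle groups (-0.19 ± 0.04 and -0.42 ± 0.04, limma adjusted p = 0.00208 and 9.77e-07), whereas Mrps18b rose after MCF10A EVs. Mrpl49 starts beside Fau, which encodes a cytosolic ribosomal protein as a fusion, and Fau fell from 7513 and 7257 after PBS to 6722 and 6672 after MCF10A EVs and 6884 and 6666 after MDA-MB-231 EVs (-0.14 ± 0.03 and -0.12 ± 0.03, limma adjusted p = 0.00218 and 0.00441) while Mrpl49 rose. Mrps12 starts beside Sars2, the mitochondrial seryl-tRNA synthetase, which was not called, at 323 and 301 after PBS, 349 and 338 after MCF10A EVs and 354 and 344 after MDA-MB-231 EVs. Mrpl51 starts beside Ncapd2, a condensin subunit, and both rose in both vesicle groups, Mrpl51 from 784 and 833 to 911 and 1003 and 951 and 956 and Ncapd2 from 1996 and 1970 to 2451 and 2486 and 2857 and 2996.

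Genes that overlap others limit what the counts can tell. In the annotation 26 of the 76 genes overlap a gene on the opposite strand and 8 overlap a gene on the same strand. Mrpl46 and Mrps11 overlap each other, Mrpl49 overlaps Syvn1, and Mrpl43 overlaps the mitochondrial DNA helicase gene. The sources used here do not give the strand used in counting, so reads of such partners cannot be told apart.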

How the data were processed

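RNA-seq gene values were taken from the authors' deposited table of 20475 genes and 6 libraries. Per the submitters' processing notes, TopHat2 and edgeR were used and the build hg19 was named, although the genes are mouse genes, so genes of the table are placed by chromosome only. Per the labels' protocols, a stranded kit for mRNA was used. For the read counter, annotation and counted strand, the sources used here give nothing. The deposited values are a normalised signal, edgeR quantile-adjusted pseudo-counts, from which whole reads were recovered for 122850 of 122850 values (100%, within a relative 1e-06, common dispersion 0.000591). A floor of 3 reads was 0.102 to 0.134 CPM, and such floors cover counting error only.

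Log2 values (pseudocount 1) of 15025 genes were fitted with limma 3.58.1 under R 4.3.3 (lmFit, eBayes, trend on), in 1 model over the 6 libraries (3 residual and 11.5 prior degrees of freedom). The fold of a gene with low values is understated on this scale. Alternatives were a pseudocount of 0.5, no filter, a filter of 5 CPM, no trend, other scalings, edgeR 4.0.16 and DESeq2 1.42.0 on the whole reads, only the groups compared, a replicate block, and each library left out. The steps were tested on simulated data. Named genes were the 6 called higher and 6 called lower with the largest change in each comparison, the 3 highest and 3 lowest per length, up to 4 called genes per list and comparison, and Mrpl12, Mrps12, Mrpl3, Mrpl44, Mrps16, Mrps22, Mrps18a, Mrps18b, Mrps18c, Mrps30 and Mrps36. The members and lists were chosen with earlier results of these data known. Promoter sequences and their coordinates are from RefSeq (GRCm38.p6), and transcript lengths and neighbours from GENCODE vM21.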

Additional observations from a re-analysis of the deposited data

How the results depend on the processing

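With MDA-MB-231 EVs against PBS, the count of 33 genes higher became 15 without the trend and 15 with DESeq2, and ran from 18 to 29 over the fits without 1 library. The count of 2 lower became 0 without the trend, with library totals and with DESeq2, beside 11.4%, 12.6% and 12.1% of all genes. It was 1 with quantile scaling and 1 with only the groups compared, beside 15.6% and 15.8%. With MCF10A EVs against PBS, the count of 36 higher became 18 without the trend and 21 with DESeq2, and ran from 23 to 38, and 0 were lower under each of the 17 settings. Between the vesicle groups, the count of 0 higher became 2 with library totals, and the count of 3 lower became 6 with a filter of 5 CPM, 5 with edgeR, 0 without the trend, and 1 with quantile scaling, library totals, DESeq2 or only the groups compared, and ran from 0 to 4. Most of the fits without 1 library called fewer of all tested genes than the reported fit. With the filter of 5 CPM, 16.3% of all genes were called lower between the vesicle groups. The cause of these shifts was not tested. Library totals called 67.8% of the called genes of MDA-MB-231 EVs against PBS higher, beside 51.4% in the reported fit, and 61.7% of those of MDA-MB-231 EVs against MCF10A EVs, beside 40.4%. Of 1547 alternative values of the named genes, 1347 kept their direction and side of the threshold, 179 lost a call, 6 gained one and 15 changed sign, all of the last in comparisons where the gene had no call. With library totals Mrps12 and Mrpl44 came to 0.052 and 0.035 with MDA-MB-231 EVs, and with quantile scaling Mrps18a and Mrps18c to -0.003 and -0.023. Over the fits without 1 library, the changes with MDA-MB-231 EVs ran from -0.061 to 0.033 for Mrps12, -0.027 to 0.051 for Mrps18a, -0.114 to 0.06 for Mrpl44 and -0.063 to 0.082 for Mrps18c, and those with MCF10A EVs from -0.115 to 0.019 for Mrpl53, -0.036 to 0.139 for Mrpl44 and -0.201 to 0.005 for Mrps36. The replicate numbers share only a number: same-numbered libraries deviated with correlations of -0.00648, -0.00442 and 0.0188 over 10309 genes. The replicate block gave 32 higher and 2 lower, 37 and 0, and 0 and 2 in the 3 comparisons. Of all genes, it called 17.7% higher and 16.8% lower, 17.1% and 14.5%, and 6.92% and 10.1%. Depth and 2 libraries a group limit the calls for the genes with fewest reads.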
